A study of Mus musculus with 24 samples.

Results

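The restoration response of a cell line, taken here as its p53-restored level minus its control level in log2(TPM + 1), was compared between the 2 types of mouse small cell lung cancer (SCLC) lines that differ in their fate after p53 returns. Only this difference of responses (Type D minus Type V) is described, and not the response within a type. It was computed from the 12 libraries without cyclosporin A (CsA) of the 24 in the series, as 3 Type D lines (4711-1, 4711-18 and 4716-11) against 3 Type V lines (4711-11, 4716-10 and 4716-14), and values are given in that order of lines throughout. A positive difference means that a gene rose more, or fell less, in Type D.

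All 6 lines were established from individual lung tumors started by adenoviral CMV-Cre in mice with 2 Trp53 XTR alleles, floxed Rb1 and Rbl2 (both flox/flox) and Rosa26 FlpO-ER, before any restoration, so that control and restored cells alike had been exposed to Cre and carried the same floxed Rb1 and Rbl2 alleles. Cre turns the XTR gene trap on and silences Trp53 (the TR, or Control, state, treated with vehicle), and 4-hydroxytamoxifen (4-OHT) activates FlpO-ER, which deletes the trap (the R, or Restored, state). Cells were collected 72 h after treatment. Type D lines undergo necrosis after restoration, whereas Type V lines stay viable in a senescence-like arrest, and the other 12 libraries repeat both arms in the presence of CsA, a cyclophilin inhibitor that protects Type D cells. The study places this necrosis at about the time of collection or in the days after it. Restored Type D cultures may thus have held dying cells, whose part in the values was not tested. Each line is 1 culture per condition, so the error in the 12 libraries without CsA is the spread between lines. Any feature that separates the 3 lines of a type from the other 3 cannot be told apart from the type.

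The p53 protein is a transcription factor that induces genes of cell cycle arrest (Cdkn1a), of cell death (Bbc3, Pmaip1, Fas) and of its own feedback (Mdm2), while cell cycle genes are lowered indirectly through p21 and the RB family. Part of that route was removed in all of these lines, because Rb1 and Rbl2 were deleted as the tumors formed. Cyclophilins are prolyl isomerases, of which the mitochondrial Ppif is known for its part in a necrotic permeability transition. In the study, CRISPR guides against Ppia and Ppie, but not Ppif, were enriched among live Type D cells after restoration.

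Trp53 itself marked the 2 arms as labelled. In the Type D lines Trp53 was at 10.9, 13.9 and 10.7 TPM in Control and 213, 181 and 203 TPM in Restored. In the Type V lines it was at 13.6, 14.8 and 14.1 TPM in Control and 189, 214 and 253 TPM in Restored. Every Restored library was above every Control library, and the response did not differ detectably between types (0.12 ± 0.19, adjusted p = 0.795, 95% interval -0.33 to 0.57). Of 10 markers of neuroendocrine SCLC, Insm1, Syp, Uchl1 and Ncam1 reached 1 TPM in at least 1 Control line of each type. The summed markers of lymphocytes and endothelial cells stayed at or below 4.65 TPM in all 12 libraries.

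Of 14104 genes tested, 5 were called for a difference of responses (limma, adjusted p below 0.05 and a difference of at least 1 log2). The difference was positive for Mgp, Capn6 and Csn3 (3 genes, 0.0213% of those tested) and negative for Gm15987 and Cyp4b1 (2 genes, 0.0142%). Throughout, larger in Type D means a positive difference and smaller a negative one, whichever type changed more. Many more genes lay between the thresholds, since 2190 genes had an unadjusted p below 0.05 where 705.2 would be expected without any difference. Of these, 1246 had a positive difference and 944 a negative one. Without pairing the libraries by line, 387 genes had an unadjusted p below 0.05. The expected count is an average, and genes that vary together can move the observed count far from it. The difference was 1 log2 or more in 383 genes and -1 log2 or less in 458 genes, around a median of 0.040 over all genes. A positive difference was found in 54.6% of all tested genes.

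The 12 libraries leave 4 residual degrees of freedom. When all 24 libraries shared the estimate of the spread and each line kept its own baseline, the same differences gave 344 calls, with 160 genes larger in Type D (1.13% of those tested) and 184 smaller (1.30%). Scaling the libraries by median ratios moved this split to 121 larger and 221 smaller. The 24-library fit has 12 residual degrees of freedom, all from the same 6 lines. It takes the responses of a line without and with CsA as separate errors. A response particular to a line and present in both is thus counted again, and adjusted p can be too small. All 5 genes above were among the 344. In 341 of the 344 the 3 Type D responses did not overlap the 3 Type V responses, which held for 22.6% of all genes, although a gene with overlapping lines could hardly be called. The 344 genes are used below to describe gene groups, and from here on a gene other than these 5 is said to be called when it is among the 344. Its difference ± SE is that of the 12 libraries, in which it did not pass the threshold, and the adjusted p of both fits is given where a gene is described by its values. For the 45 such genes with settings computed for each, the sign was kept in every setting while adjusted p ran from 0.000209 to 1. No fit without the line baselines called more than 4 genes, so nearly all calls rest on the pairing of Control and Restored cells by line (the replicate block).

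**Figure D1:**
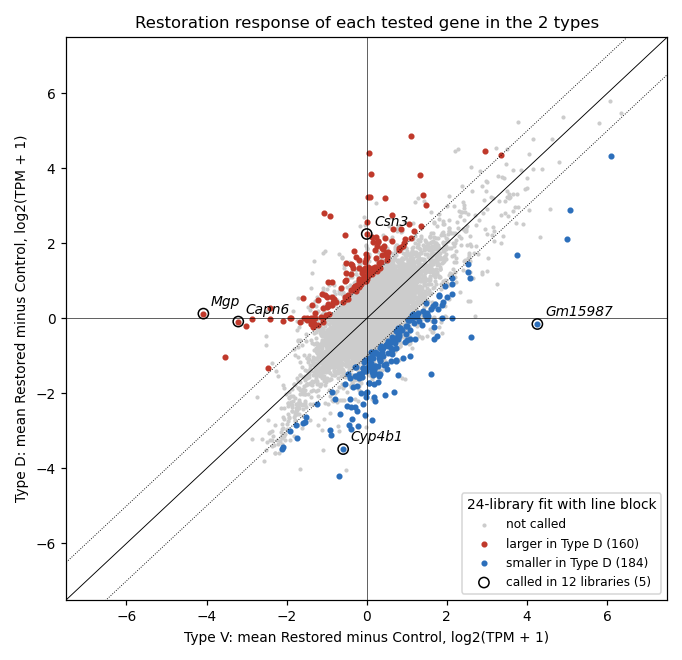
Mean restoration response of each of the 14104 tested genes in the 3 Type V lines (x axis) and the 3 Type D lines (y axis), both as Restored minus Control in log2(TPM + 1) without CsA, with equality as a solid line and differences of 1 log2 as dotted lines. Red and blue points are the 160 and 184 genes called in the 24-library fit, and the 5 circled genes were called in the 12 libraries alone; most genes lie near the solid line.

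Mgp (matrix Gla protein, an inhibitor of tissue calcification) had the largest positive difference of the 5. It was at 292, 210.5 and 253 TPM in Control and 9.95, 20.2 and 13.1 TPM in Restored Type V lines and at no more than 0.364 TPM in any Type D library. The Type V libraries lost most of the transcript and the Type D lines had none to lose, which gave a difference of 4.21 ± 0.37 (SE, 95% interval 3.33 to 5.09, adjusted p = 0.0412). Capn6, a calpain without protease activity that binds microtubules, had the same form. It was at 14.4, 7.67 and 185 TPM in Control and 0.274, 0.269 and 18.5 TPM in Restored Type V lines, against at most 0.151 TPM in Type D, for a difference of 3.12 ± 0.27, adjusted p = 0.0412. The starting levels of Capn6 differed widely among the Type V lines, and 4716-14 alone kept a clear level after restoration.

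Csn3 (kappa-casein, a milk protein) moved in Type D. It was at 1.31, 0 and 3.69 TPM in Control and 10.3, 3.29 and 23.2 TPM in Restored Type D lines and at 0 TPM in all 6 Type V libraries. Each Type D line was higher after restoration, with a difference of 2.25 ± 0.21, adjusted p = 0.0412. Gm15987, a predicted noncoding gene antisense to Clec2g, moved in Type V, where it was at 0.147, 0.657 and 0.306 TPM in Control and 14.1, 32.4 and 33.6 TPM in Restored. It stayed at or below 0.606 TPM in Type D, for a difference of -4.41 ± 0.30, adjusted p = 0.0204. Reads of an antisense pair are separated only if strand was used in counting, which the sources used here do not state.

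Cyp4b1, a lung cytochrome P450 that oxidizes fatty acids and xenobiotics, was the only called gene expressed in both types. In the Type D lines Cyp4b1 was at 29.2, 15.0 and 15.3 TPM in Control and 1.04, 0.418 and 0.936 TPM in Restored. In the Type V lines it was at 7.51, 15.7 and 8.32 TPM in Control and 4.22, 13.1 and 4.31 TPM in Restored. All 3 Type D lines came down to about 1 TPM or less. The Type V lines came down less, with responses of -0.70, -0.25 and -0.81, for a difference of -2.90 ± 0.28, adjusted p = 0.0452. In the 17 other settings the estimates kept their signs, and adjusted p ranged from 1.35e-05 to 0.147 for Gm15987, from 5.45e-06 to 0.182 for Mgp, from 4.59e-05 to 1 for Capn6, from 0.00239 to 1 for Csn3 and from 0.000629 to 0.912 for Cyp4b1. Leaving out either line 4711-1 or 4711-18 of Type D, or 4716-10 or 4716-14 of Type V, left no gene called, leaving out 4711-11 left 1 (Gm15987), and leaving out 4716-11 gave 6 larger and 8 smaller calls.

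**Figure D2:**
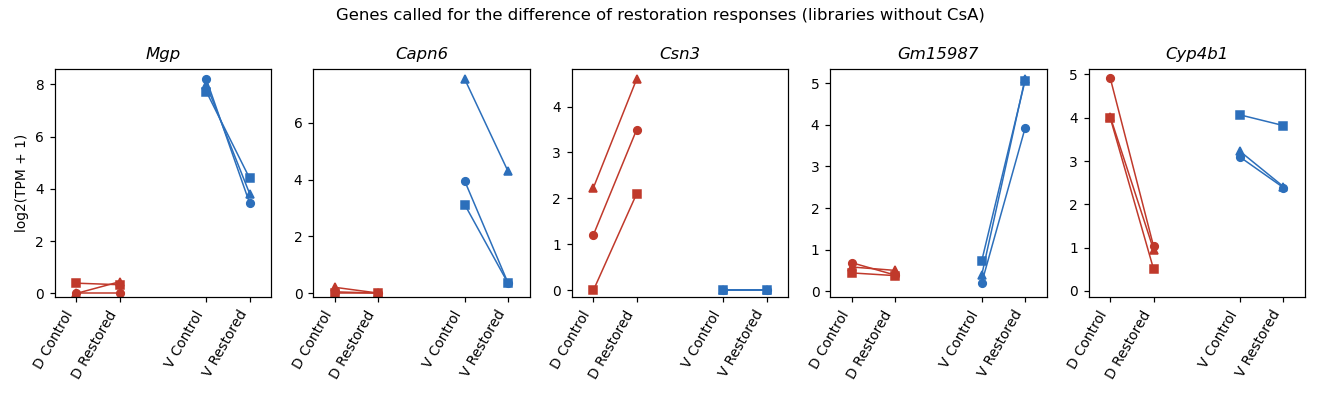
Level of the 5 called genes, as log2(TPM + 1), in each of the 12 libraries without CsA, with 1 line joining Control to Restored of the same cell line (red Type D, blue Type V; circle, square and triangle are lines 1, 2 and 3 in the order given in the text). Mgp and Capn6 drop in Type V from levels that Type D never has, Csn3 climbs in Type D alone, Gm15987 climbs in Type V alone, and Cyp4b1 drops far more in Type D.

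Genes absent from 1 type made up 69 of the 344 calls (below 1 TPM in all 6 of its libraries), and the mean response in that type was at most 0.63 log2 to either side, so their difference came mainly from the other type. Such genes passed the filter on low values mainly through the type that expresses them. Small responses in the silent type can lower the error shared by both types. Lack of overlap and the call thus follow in part from the low level. Their share among all tested genes was not counted. Of the 160 larger calls, 22 were silent in Type D and 16 in Type V. Of the 184 smaller calls, 16 lacked expression in Type D and 15 lacked it in Type V. The 22 genes silent in Type D held the fibrillar collagen genes Col1a2 and Col3a1, Col8a2, the collagen crosslinking enzyme Lox, the matricellular gene Postn and the PDGF receptor Pdgfrb. Together with Mgp and Capn6 these were genes that Type V lines expressed and had less of after restoration.

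Col1a2 was at 19.0, 80.7 and 170.2 TPM in Control and 6.36, 11.6 and 6.89 TPM in Restored Type V lines and at most 0.0431 TPM in Type D, a difference of 2.85 ± 0.68, adjusted p = 0.16 in 12 and 0.0149 in 24 libraries. Col3a1 was at 34.6, 6.34 and 20.8 TPM in Control and 16.5, 0.518 and 0.417 TPM in Restored (2.40 ± 0.67, adjusted p = 0.198 in 12 and 0.0296 in 24 libraries). The size of the loss varied widely by line, being smallest in 4711-11 for both. Of the 34 mesenchymal and matrix genes, all of them tested, 25 had a positive and 9 a negative difference, with a median of 0.51 beside 0.040 for all genes. Called genes were 8 larger (Mgp, Col1a2, Col3a1, Col5a1, Col8a2, Lox, Postn and Mmp14) and 1 smaller (Mmp2, a gelatinase). Over all tested genes 54.6% were positive, 1.13% were called larger and 1.30% were called smaller. The median was 0.27 without line 4716-14. Markers of fibroblasts moved with these values: the 7 listed genes summed to 227 to 500 TPM in Control and 89.1 to 194 TPM in Restored Type V lines, against 0.48 to 1.93 TPM in all Type D libraries. The list includes Col1a1, Col1a2, Col3a1 and Pdgfrb themselves, Lum was below 1 TPM throughout, and the part that other cells could have in the result was not tested.

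Col1a1 (1.46 ± 0.65, adjusted p = 0.338) and Dcn (-0.077 ± 0.25, adjusted p = 0.903), the other fibroblast genes with a test, were not called. Dcn (decorin) was at 62.1, 28.0 and 24.7 TPM in Control and 71.9, 36.3 and 19.5 TPM in Restored Type V lines and so did not move with the collagens. The 2 matrix metalloproteinases in the list diverged. Mmp14, the membrane-bound collagenase, was at 4.95, 6.46 and 20.7 TPM in Control and 25.0, 36.2 and 55.4 TPM in Restored Type D lines and at 214, 232 and 197 TPM in Control and 322, 226 and 226 TPM in Restored Type V lines (1.69 ± 0.28, adjusted p = 0.108 in 12 and 0.00318 in 24 libraries). Its levels climbed in every Type D line and yet stayed far below those of Type V. Mmp2, which MMP14 activates, was nearly absent from Type D and was at 1.30, 1.91 and 40.0 TPM in Control and 4.44, 8.16 and 70.1 TPM in Restored Type V lines (-1.14 ± 0.28, adjusted p = 0.168 in 12 and 0.015 in 24 libraries).

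Of the protein-coding genes with the largest positive differences among the 344, Mgp, Capn6, Col1a2, Cxcl10 and Peg10 changed mainly in Type V. The others, among them Mmp10, Mmp13, Csf2, Hilpda and Dusp5, changed more in Type D and were grouped after their values were seen. The matrix metalloproteinases Mmp10 (stromelysin) and Mmp13 (collagenase) are shown with the sequence upstream of their starts, because they lie next to each other in the set by function, on the same chromosome and by the motif marked in capitals. That motif, TGANTCA, is bound by AP-1 and reads the same on both strands.

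The windows are the 250 bases before the RefSeq start (GRCm38.p6), 5′ to 3′ on the + strand of chr9:7502092-7502341 for Mmp10 and of chr9:7272264-7272513 for Mmp13.
Mmp10: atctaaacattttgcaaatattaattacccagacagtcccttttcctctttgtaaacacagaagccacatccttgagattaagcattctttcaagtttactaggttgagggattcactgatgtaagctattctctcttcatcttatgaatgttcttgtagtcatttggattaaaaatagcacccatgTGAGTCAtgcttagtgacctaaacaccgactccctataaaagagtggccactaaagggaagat
Mmp13: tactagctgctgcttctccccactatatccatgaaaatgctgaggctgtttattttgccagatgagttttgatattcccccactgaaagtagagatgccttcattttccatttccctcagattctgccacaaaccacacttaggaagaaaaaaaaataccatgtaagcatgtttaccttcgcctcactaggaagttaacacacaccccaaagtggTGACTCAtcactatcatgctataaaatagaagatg

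TGANTCA begins 63 bases before the Mmp10 start and 35 bases before the Mmp13 start. It was present in 2217 of 32851 promoters of the same length (6.75%), in 16 of the 140 promoters matched for genes called larger in Type D (11.4%) and in 10 of the 168 matched for genes called smaller (5.95%). A match describes these letters only. The p53 decamer (by its usual consensus, on both strands) was in 7.13% of all promoters, in 14 of the 140 and in 9 of the 168.

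Mmp10 was at 4.74, 0.222 and 7.76 TPM in Control and 277, 50.5 and 103 TPM in Restored Type D lines and at 2.77, 8.75 and 2.11 TPM in Control and 12.3, 18.8 and 3.24 TPM in Restored Type V lines, a difference of 3.76 ± 0.59, adjusted p = 0.108 in 12 and 0.00684 in 24 libraries. Mmp13 was at 43.3, 8.69 and 26.1 TPM in Control and 772, 135 and 85.7 TPM in Restored Type D lines and at 2.15, 684 and 1.92 TPM in Control and 7.18, 758 and 1.60 TPM in Restored Type V lines (2.75 ± 0.69, adjusted p = 0.176 in 12 and 0.0305 in 24 libraries). Type V line 4716-10 held more Mmp13 in Control than 5 of the 6 Type D libraries reached, so its level did not separate the types. Csf2, which encodes the cytokine GM-CSF, was at 17.3, 10.0 and 64.6 TPM in Control and 398, 439 and 229 TPM in Restored Type D lines and between 0 and 5.78 TPM in Type V (3.75 ± 0.85, adjusted p = 0.146 in 12 and 0.0101 in 24 libraries). Hilpda, a lipid droplet protein induced by hypoxia, was at 55.0, 37.5 and 117 TPM in Control and 517, 1001 and 423 TPM in Restored Type D lines. The Type V lines started from like levels, at 53.3, 46.2 and 48.4 TPM in Control and 34.9, 78.9 and 45.2 TPM in Restored, and only 4716-10 ended higher, for a difference of 3.23 ± 0.69, adjusted p = 0.14 in 12 and 0.00777 in 24 libraries.

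Dusp5, a nuclear phosphatase of ERK, was at 43.3, 14.9 and 49.6 TPM in Control and 265, 100.1 and 135 TPM in Restored Type D lines and at 7.02, 24.1 and 46.2 TPM in Control and 8.27, 15.0 and 20.0 TPM in Restored Type V lines (2.76 ± 0.44, adjusted p = 0.108 in 12 and 0.00367 in 24 libraries). Lilr4b and Lilrb4a, near-identical immunoglobulin-like receptor genes between which reads may be shared, appeared in Type D alone. Lilr4b was at 0.471, 0.118 and 0.441 TPM in Control and 70.6, 20.9 and 13.4 TPM in Restored Type D lines and at no more than 0.101 TPM in Type V (4.36 ± 0.54, adjusted p = 0.0737 in 12 and 0.000209 in 24 libraries), and Lilrb4a followed it (3.16 ± 0.42, adjusted p = 0.082 in 12 and 0.000677 in 24 libraries). These receptors are best known from myeloid cells. The 8 listed myeloid markers summed to 9.53 to 11.4 TPM in Control and 32.4 to 57.0 TPM in Restored Type D lines, and to 8.01 to 12.9 TPM and 17.0 to 32.8 TPM in Type V. In Restored Type D libraries Cd68, Lyz2 and Csf1r reached 1 TPM, Cd68 was higher after restoration in all 3 lines, and Tyrobp, Adgre1 and Itgam were at 0 TPM. The part that other cells could have in these values was not tested. Hmox1 (heme oxygenase) had a mean response of 3.83 in Type D and 1.33 in Type V (2.50 ± 0.69, adjusted p = 0.198 in 12 and 0.0451 in 24 libraries).

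Cxcl10 and Peg10 reached the same positive sign by losing transcript in Type V. Cxcl10, an interferon-induced chemokine, was at 21.8, 25.1 and 35.6 TPM in Control and 1.26, 9.12 and 5.09 TPM in Restored Type V lines and at 3.18, 8.73 and 6.35 TPM in Control and 4.54, 9.59 and 8.34 TPM in Restored Type D lines (2.72 ± 0.47, adjusted p = 0.109 in 12 and 0.0256 in 24 libraries). Peg10, an imprinted gene derived from a retrotransposon, was at 718, 61.1 and 121 TPM in Control and 41.0, 5.36 and 11.9 TPM in Restored Type V lines and also came down in Type D line 4711-18 (2.52 ± 0.75, adjusted p = 0.221 in 12 and 0.0273 in 24 libraries). Over the 12 named genes with the largest positive differences, adjusted p in the 12 libraries ran from 0.0412 to 0.221, and only Mgp and Capn6 were called there.

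**Figure D3:**
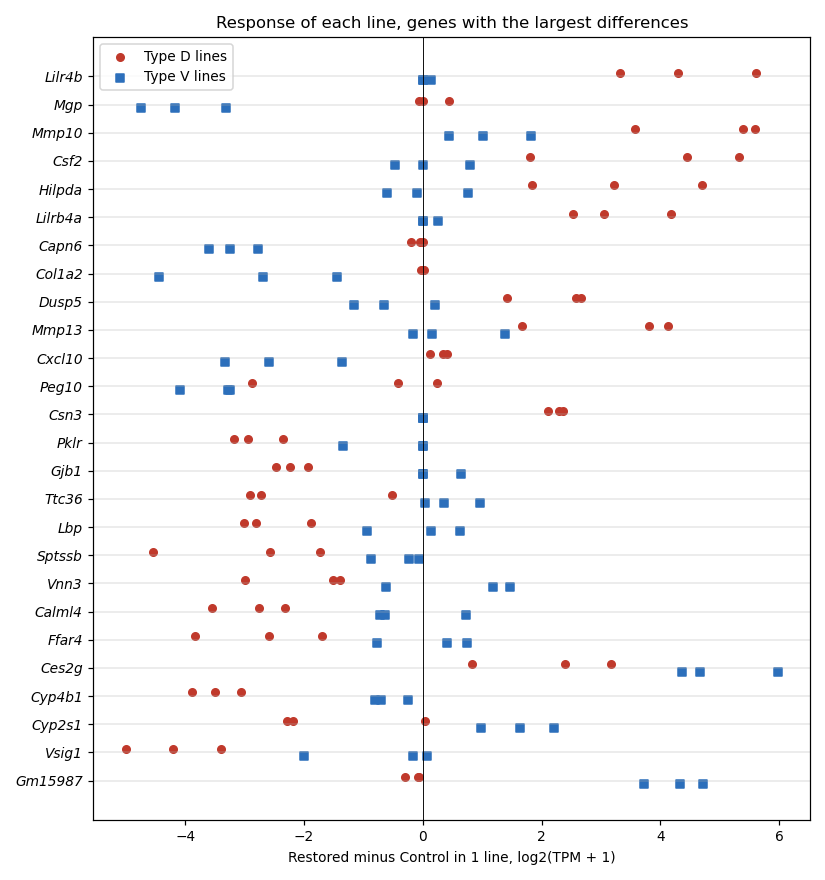
Restored minus Control in each line, in log2(TPM + 1) without CsA, for the 5 genes called in the 12 libraries and the 12 protein-coding genes with the largest difference in each direction in the 24-library fit, sorted by the difference of type means (red circles, Type D lines; blue squares, Type V lines). The colors do not overlap for any gene, which the choice of genes requires; the spread within a color is wide for Csf2, Col1a2 and Vnn3 and narrow for Csn3.

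The genes with a smaller response in Type D included genes of epithelia and metabolism that Type D lines expressed in Control and had less of in Restored. Among the 184 smaller calls, the Control level of Type D exceeded that of Type V by at least 1 log2 in 101. It was lower by as much in 13. Over all tested genes these shares were 8.28% and 9.47%. Since a gene must be expressed to fall, these counts are a description of where the calls lie. The Control level is also a term of the difference, so a high Type D Control value by itself lowers the difference. By direction of the mean response, 97 genes were lower in Type D with the larger change there, 39 of them also lower in Type V and 58 higher, while 33 were lower in Type D with the larger change in Type V. In 23 genes the mean was higher in both types and more so in Type V.

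Vsig1, a junction protein of stomach epithelium, was at 53.7, 100.2 and 87.0 TPM in Control and 1.97, 2.17 and 7.31 TPM in Restored Type D lines. In Type V it was near 0 TPM except in Control 4716-10 (6.62 TPM), and the difference was -3.51 ± 0.63, adjusted p = 0.116 in 12 and 0.00335 in 24 libraries. Gjb1 (connexin 32) went from 9.61, 9.97 and 5.63 TPM to 0.919, 1.32 and 0.741 TPM in Type D and was 0 in Type V lines 4711-11 and 4716-14 (-2.42 ± 0.28, adjusted p = 0.0645 in 12 and 0.00107 in 24 libraries). Calml4, a calmodulin-like protein of the brush border, was at 68.4, 78.8 and 23.6 TPM in Control and 9.30, 5.77 and 3.91 TPM in Restored Type D lines, with -2.67 ± 0.48, adjusted p = 0.116 in 12 and 0.0135 in 24 libraries. Each of these was lower in all 3 Restored Type D lines than in any Control Type D line.

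Lbp (lipopolysaccharide-binding protein) had a like starting level in 1 line of Type V. It was at 88.4, 187 and 75.4 TPM in Control and 10.0, 25.8 and 19.6 TPM in Restored Type D lines. Type V line 4716-10 began at 202 TPM and ended at 311 TPM, although the other Type V lines held little, and the difference was -2.52 ± 0.45, adjusted p = 0.116 in 12 and 0.00107 in 24 libraries. Ffar4, a receptor of long-chain fatty acids, was at 204, 91.7 and 101 TPM in Control and 32.9, 5.50 and 30.1 TPM in Restored Type D lines and at 71.8, 44.8 and 1.90 TPM in Control and 121, 59.7 and 0.708 TPM in Restored Type V lines (-2.84 ± 0.59, adjusted p = 0.135 in 12 and 0.00615 in 24 libraries). The pantetheinase Vnn3 (-2.65 ± 0.65, adjusted p = 0.17 in 12 and 0.015 in 24 libraries), the serine palmitoyltransferase subunit Sptssb (-2.56 ± 0.68, adjusted p = 0.191 in 12 and 0.0125 in 24 libraries), the liver and red cell pyruvate kinase Pklr (-2.38 ± 0.43, adjusted p = 0.116 in 12 and 0.00338 in 24 libraries) and Ttc36 (-2.50 ± 0.64, adjusted p = 0.182 in 12 and 0.0114 in 24 libraries) had the same sign. Nos2, the inducible nitric oxide synthase, had a mean response of -2.08 in Type D and 0.17 in Type V (-2.26 ± 0.50, adjusted p = 0.142 in 12 and 0.0149 in 24 libraries).

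Other genes reached a negative difference by climbing more in Type V. Ces2g, a carboxylesterase, was at 0.223, 2.80 and 22.9 TPM in Control and 75.9, 95.7 and 488 TPM in Restored Type V lines and at 173, 0.605 and 54.8 TPM in Control and 308, 13.4 and 291 TPM in Restored Type D lines (-2.87 ± 0.65, adjusted p = 0.144 in 12 and 0.017 in 24 libraries). Cyp2s1, a P450 of epithelia, was at 1.22, 19.4 and 2.78 TPM in Control and 3.39, 93.3 and 10.8 TPM in Restored Type V lines, whereas Type D lines 4711-1 and 4711-18 came down and 4716-11 did not (114, 284 and 149 TPM in Control and 22.7, 61.5 and 153 TPM in Restored; -3.09 ± 0.64, adjusted p = 0.135 in 12 and 0.00237 in 24 libraries). The mitochondrial creatine kinase Ckmt1 had mean responses of 2.90 in Type D and 5.07 in Type V (-2.17 ± 0.36, adjusted p = 0.108 in 12 and 0.00893 in 24 libraries), and Txnip, an inhibitor of thioredoxin and glucose uptake, had -0.23 and 1.68 (-1.91 ± 0.39, adjusted p = 0.135 in 12 and 0.0137 in 24 libraries).

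Among all tested genes 54.6% were positive and 1.30% were called smaller. Of 30 tested gut-like epithelial genes, 26 had a negative and 4 a positive difference, with a median of -0.70. Of these, 3 were called, all smaller in Type D: Vsig1, the galectin Lgals4 (-1.74 ± 0.34, adjusted p = 0.127 in 12 and 0.00909 in 24 libraries) and the keratin Krt19 (-1.58 ± 0.29, adjusted p = 0.12 in 12 and 0.0157 in 24 libraries). Krt19 was abundant in Type D, at 4802, 2827 and 3999.6 TPM in Control and 3005, 2215 and 2436 TPM in Restored, and climbed in each Type V line, from 93.7, 748 and 297 TPM to 214, 969 and 806 TPM. The mean over the 30 genes was -1.10, -1.38 and -0.76 in the Type D lines and 0.047, -0.58 and -0.28 in the Type V lines, without overlap. Squamous epithelial genes did not share this sign, with 9 of 13 positive, a median of 0.42 and none called.

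Canonical p53 targets had large responses in both types, and their differences between types were small beside these. The median response of 18 p53 cell death genes was 2.15 in Type D and 1.71 in Type V. Their median difference was 0.30, with 14 positive, 4 negative and none called. For 12 growth arrest genes the median difference was 0.20, with 7 positive and 5 negative. For 22 genes of repair and metabolism it was -0.0084, with 11 of either sign, and for 7 tested genes of p53 feedback it was 0.25, with 5 positive. In each of these 4 lists at most 1 gene was called. Over all tested genes 54.6% were positive, 1.13% were called larger and 1.30% were called smaller.

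The called feedback gene was Mdm2, which encodes the ubiquitin ligase that degrades p53. In the Type D lines Mdm2 was at 73.4, 71.4 and 71.6 TPM in Control and 1584, 1570.1 and 1384 TPM in Restored. In the Type V lines it was at 69.8, 63.2 and 61.9 TPM in Control and 723, 762 and 554 TPM in Restored. The Control levels were nearly equal in all 6 lines and the Restored levels did not overlap, for a difference of 1.01 ± 0.15, adjusted p = 0.0907 in 12 and 0.00746 in 24 libraries. The rest of that list was not called: Mdm4 (-0.28 ± 0.34), Ppm1d (0.35 ± 0.18), Ccng1 (0.43 ± 0.26), Rchy1 (0.25 ± 0.11), Cop1 (0.07 ± 0.17) and Pml (-0.075 ± 0.18). Trp73 was near 0 TPM in all 12 libraries.

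Cdkn1a, which encodes p21, had a negative difference (-0.63 ± 0.19, adjusted p = 0.221). It was at 108, 129 and 90.0 TPM in Control and 1871, 2539.9 and 1563 TPM in Restored Type D lines and at 48.3, 37.5 and 72.1 TPM in Control and 1734, 1068 and 1605 TPM in Restored Type V lines, so that Restored levels overlapped while Control levels were higher in each Type D line. Among death genes (chosen after their values were seen), the BH3-only genes Bbc3 (0.79 ± 0.26, adjusted p = 0.24) and Pmaip1 (0.98 ± 0.38, adjusted p = 0.296) and the apoptosome gene Apaf1 (0.42 ± 0.17, adjusted p = 0.308) had positive differences that were not called. Fas (0.66 ± 0.72, adjusted p = 0.683), Bax (-0.12 ± 0.15, adjusted p = 0.717) and Perp (-0.042 ± 0.36, adjusted p = 0.969) had intervals that include 0. Gdf15, a stress cytokine, was far higher in Type D throughout, at 49.5, 218 and 87.0 TPM in Control and 1303, 3023 and 859 TPM in Restored against 1.63, 6.14 and 5.09 TPM in Control and 8.94, 58.9 and 66.7 TPM in Restored in Type V, and its difference was not called (1.10 ± 0.48, adjusted p = 0.33). Ddit4l (1.51 ± 0.33, adjusted p = 0.14 in 12 and 0.0129 in 24 libraries), a relative of the mTOR inhibitor REDD1, and Plk3, a stress-response kinase (1.73 ± 0.42, adjusted p = 0.165 in 12 and 0.015 in 24 libraries), were the calls in the other p53 lists.

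Plk3 was at 15.2, 9.08 and 10.7 TPM in Control and 39.9, 37.4 and 14.0 TPM in Restored Type D lines and at 10.8, 15.1 and 11.0 TPM in Control and 4.85, 10.9 and 9.97 TPM in Restored Type V lines, with every line higher after restoration in Type D and lower in Type V. For Ddit4l both types climbed and the Type V lines started higher, at 4.80, 14.7 and 25.0 TPM against 1.52, 3.80 and 4.00 TPM in Type D.

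None of the 8 cyclophilin genes was called with the minimum of 1 log2, and their median difference was 0.069. Ppia, which encodes cyclophilin A, was at 864, 839.9 and 950.5 TPM in Control and 624, 474 and 674 TPM in Restored Type D lines and at 898, 913 and 1149 TPM in Control and 649, 575 and 928 TPM in Restored Type V lines (-0.12 ± 0.17, adjusted p = 0.769, 95% interval -0.53 to 0.29). Ppif, which encodes mitochondrial cyclophilin D, was at 15.1, 40.6 and 19.3 TPM in Control and 18.3, 32.9 and 22.6 TPM in Restored Type D lines and at 20.3, 29.7 and 19.1 TPM in Control and 13.7, 19.9 and 19.2 TPM in Restored Type V lines (0.42 ± 0.23, adjusted p = 0.426, 95% interval -0.13 to 0.97). Ppia levels came down in all 6 lines, while Ppif moved both ways in Type D. Ppie, a spliceosomal cyclophilin, had a difference of 0.39 ± 0.11, adjusted p = 0.212 in 12 and 0.0334 in 24 libraries, and its lines did not overlap. The other 5 had differences of -0.17 (Ppib), 0.045 (Ppic), 0.49 (Ppid), 0.037 (Ppig) and 0.092 (Ppih). Of 19 tested genes of necrotic cell death, 6 were positive and 13 negative (median -0.08), and Gsdme, which encodes a pore-forming gasdermin, was called smaller in Type D (-1.29 ± 0.37, adjusted p = 0.207 in 12 and 0.0223 in 24 libraries). It was at 26.2, 64.8 and 36.6 TPM in Control and 12.6, 17.5 and 22.0 TPM in Restored Type D lines. Among all tested genes 54.6% were positive and 1.30% were called smaller.

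Mitotic genes gave a one-sided list. All 26 had a negative difference, with a median of -1.01, and in 20 of them the lines did not overlap. Of all tested genes, 9.02% were negative and without overlap, 13.6% were positive and without overlap, and 1.30% were called smaller. Called genes were Aurkb (-1.33 ± 0.47, adjusted p = 0.259 in 12 and 0.0461 in 24 libraries), Ccnb1 (-1.36 ± 0.40, adjusted p = 0.214 in 12 and 0.0269 in 24 libraries), Cdc20 (-1.08 ± 0.24, adjusted p = 0.14 in 12 and 0.00909 in 24 libraries) and Nusap1 (-1.45 ± 0.49, adjusted p = 0.252 in 12 and 0.0496 in 24 libraries), which act in chromosome segregation, mitotic entry, anaphase onset and spindle assembly. Ccnb1 (cyclin B1) was at 143, 139.6 and 136 TPM in Control and 14.1, 5.52 and 19.3 TPM in Restored Type D lines and at 146, 137 and 116 TPM in Control and 28.9, 31.3 and 28.9 TPM in Restored Type V lines. Control levels were alike and every Restored Type D library was below every Restored Type V library. The mean over the 26 genes was -2.69, -4.12 and -2.36 in the Type D lines and -2.20, -2.12 and -1.94 in the Type V lines, so line 4711-18 stood apart, and without it the median difference was -0.43. The 24 DNA replication genes did not share this, with 15 positive, 9 negative and a median of 0.084.

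Genes of epidermal growth factor receptor (EGFR) signalling and MAPK feedback leaned the other way. Of 20 tested, 17 were positive and 3 negative, the median was 0.54, and Egfr, Dusp5 and Egr1 were called larger in Type D. Over all tested genes 54.6% were positive and 1.13% were called larger. Egr1, an immediate early transcription factor, was at 239.7, 83.6 and 383 TPM in Control and 618, 175 and 528 TPM in Restored Type D lines and at 104, 268 and 294 TPM in Control and 49.7, 188 and 141 TPM in Restored Type V lines (1.83 ± 0.26, adjusted p = 0.0907 in 12 and 0.027 in 24 libraries). Every Type D line was higher and every Type V line lower after restoration. Egfr was at 12.2, 2.02 and 10.9 TPM in Control and 51.4, 14.0 and 37.9 TPM in Restored Type D lines and at 3.30, 25.1 and 15.3 TPM in Control and 9.45, 36.9 and 31.1 TPM in Restored Type V lines (1.07 ± 0.25, adjusted p = 0.16 in 12 and 0.0282 in 24 libraries). Errfi1 (1.55 ± 0.42, adjusted p = 0.197 in 12 and 0.0193 in 24 libraries), which inhibits EGFR, and the early genes Egr3 (1.44 ± 0.46, adjusted p = 0.233 in 12 and 0.045 in 24 libraries) and Nr4a1 (1.23 ± 0.20, adjusted p = 0.108 in 12 and 0.00812 in 24 libraries) were also among the 344, named here after their values were seen. The ligand Areg was not called (0.30 ± 0.48, adjusted p = 0.79).

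In 20 of 21 genes of the ATF4 stress response the difference was positive, with a median of 0.79, but only Phgdh, the first enzyme of serine synthesis, was called (1.30 ± 0.27, adjusted p = 0.135 in 12 and 0.00429 in 24 libraries). By comparison, 54.6% of all tested genes were positive and 1.13% were called larger. Phgdh was at 401, 441 and 351 TPM in Control and 490.4, 743 and 325 TPM in Restored Type D lines and at 467, 491 and 291 TPM in Control and 185, 316 and 146 TPM in Restored Type V lines. The list means overlapped between types, at 0.96, 1.09 and 0.33 in Type D and -0.83, 0.78 and -0.14 in Type V, as line 4716-10 climbed and 4711-11 dropped. Trib3 had a difference of 1.97 ± 1.29, adjusted p = 0.49. In 19 ER chaperone genes the median was -0.12 and none was called.

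Chemokines and cytokines split. Of 22 tested genes 13 were positive and 9 negative, with Cxcl10 and Csf2 called larger and Ccl20 smaller in Type D. The share of positive genes was 59.1%, beside 54.6% over all tested genes, of which 1.13% were called larger and 1.30% smaller. Ccl20, a chemokine of mucosal epithelia, was at 64.9, 134 and 80.6 TPM in Control and 6.56, 11.9 and 10.8 TPM in Restored Type D lines and at 3.85, 57.8 and 1.27 TPM in Control and 0.763, 33.0 and 0.722 TPM in Restored Type V lines (-2.22 ± 0.30, adjusted p = 0.0853 in 12 and 0.00684 in 24 libraries). No gene was called among 22 of interferon response and antigen presentation (median 0.076) or 23 of cholesterol synthesis (median -0.11). Only 5 of 14 neuroendocrine genes passed the filter on low values. Of these, Uchl1 was called larger, being at 40.9, 18.9 and 22.2 TPM in Control and 6.58, 5.85 and 3.89 TPM in Restored Type V lines and at most 1.88 TPM in Type D (2.01 ± 0.32, adjusted p = 0.108 in 12 and 0.00626 in 24 libraries), and Ddc, the decarboxylase of monoamine synthesis, was called smaller (-1.47 ± 0.30, adjusted p = 0.135 in 12 and 0.00484 in 24 libraries).

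The markers of myeloid cells with a test were Cd68 (0.67 ± 0.33, adjusted p = 0.378), Csf1r (0.68 ± 0.37, adjusted p = 0.415) and Lyz2 (-0.47 ± 0.33, adjusted p = 0.511), none of them called. Cd68, a lysosomal protein not limited to myeloid cells, was at 9.58, 7.87 and 9.92 TPM in Control and 33.9, 29.1 and 55.3 TPM in Restored Type D lines and at 10.1, 6.86 and 8.39 TPM in Control and 16.1, 20.1 and 31.3 TPM in Restored Type V lines. Of the lymphocyte and endothelial markers, Cd79a was the only one tested (0.94 ± 0.49, adjusted p = 0.396).

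**Figure D4:**
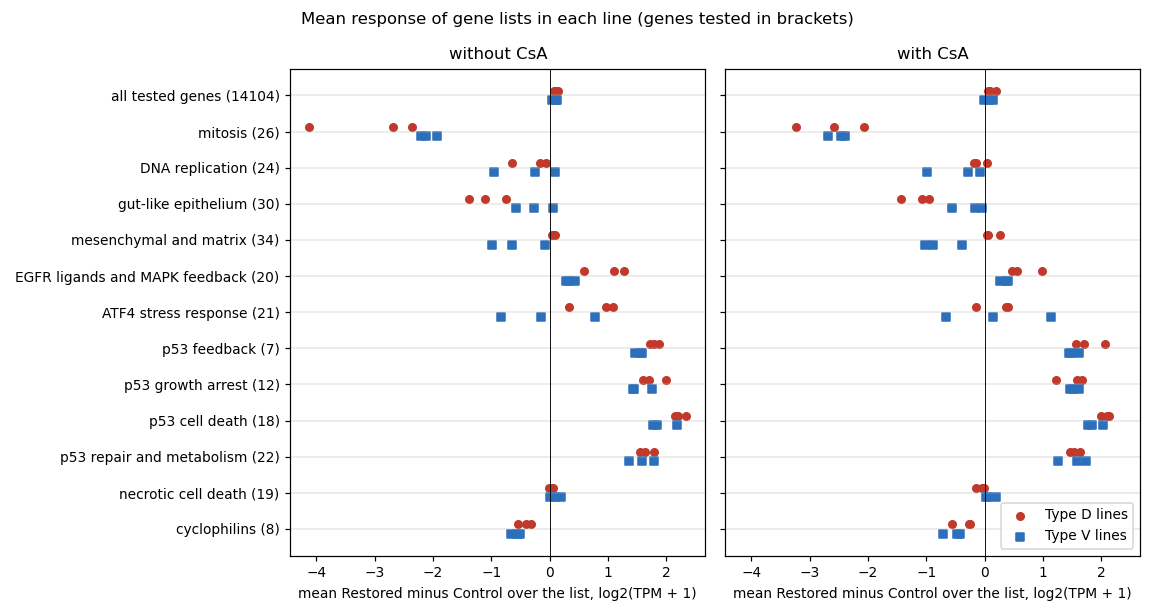
Mean Restored minus Control over the tested genes of each list, in log2(TPM + 1), for each Type D line (red circles) and Type V line (blue squares), without CsA at left and with CsA at right. The p53 lists lie well above 0 in all lines of both types. Mitosis, gut-like epithelium, matrix, EGFR and MAPK, and p53 feedback separate the types without CsA. Under CsA mitosis and p53 feedback overlap, while gut-like epithelium, matrix, and EGFR and MAPK still separate.

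The study sorted genes of these same libraries into 6 modules by hierarchical clustering and into 2 signatures that separate the types, so their direction here is no independent evidence. In Module 4, 71 of 75 tested genes had a negative difference (median -0.85), with 42 not overlapping between lines, all negative, and 20 called, among them Vsig1, Lgals4, Lbp, Gjb1 and Ccl20. In Module 5, 90 of 101 were positive (median 0.66), with 43 positive and 2 negative genes not overlapping and 15 called, among them Csf2, Hilpda and Cd55, a complement regulator (1.54 ± 0.34, adjusted p = 0.144 in 12 and 0.0445 in 24 libraries). Over all tested genes, 13.6% were positive and 9.02% negative without overlap, and 1.13% were called larger and 1.30% smaller. With or without overlap, 54.6% were positive. The medians were 0.12, -0.15, -0.40 and 0.32 in Modules 1, 2, 3 and 6, with 14, 0, 12 and 7 genes called. Of the Type D signature 82 of 107 genes were negative (10 called, all smaller), and of the Type V signature 40 of 53 were positive (7 called, all larger).

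The CsA libraries gave the same quantity a second time, in the same lines and in libraries that did not enter the differences above, although they helped to set the spread for the 344 calls. Fitted alone, they called 28 genes larger in Type D (0.199% of those tested) and 42 smaller (0.298%), against 3 and 2 without CsA. In the same limma fits, unadjusted p was below 0.05 in 2094 genes with CsA and 2190 without, so only the calls differed much. Of the 160 genes called larger without CsA, 158 kept their sign under CsA and 132 were again without overlap, with a median of 1.35 without and 1.17 with CsA. Of the 184 called smaller, 183 kept their sign and 153 were without overlap, with medians of -1.39 and -1.19. Over all tested genes 76.5% kept their sign and 21.0% were without overlap in the same direction under CsA.

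The 5 called genes had differences of 4.21 (Mgp), 3.01 (Capn6), 2.28 (Csn3), -3.73 (Gm15987) and -2.87 (Cyp4b1) under CsA, and all but Csn3 were called there too. Of the 24 genes named for the largest differences, all had the same sign, and Cxcl10 alone overlapped. Smaller differences under CsA were seen for Lilr4b (2.20 beside 4.36), Lilrb4a (1.04 beside 3.16), Csf2 (2.03 beside 3.75), Hilpda (1.88 beside 3.23) and Cxcl10 (1.08 beside 2.72). The values of Mmp10 (4.12), Col1a2 (2.76) and Vsig1 (-3.07) were close to those without CsA. Whether the difference itself changed with CsA was not tested. The 3 genes with opposite signs were Mir199a-1 (3.88 without and -3.09 with CsA), Chd5 (1.15 and -0.10) and Spata9 (-1.42 and 0.78). Mir199a-1 is a hairpin too short for these libraries to measure well.

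The gene lists behaved unequally. The median for mitosis was -1.01 without and -0.11 with CsA, where 8 of 26 genes were positive, and that for the ATF4 stress response was 0.79 and -0.034, where 10 of 21 were positive. The mitotic means under CsA were -2.59, -3.24 and -2.08 in Type D and -2.69, -2.47 and -2.39 in Type V. Gut-like epithelium (-0.70 and -0.79), matrix genes (0.51 and 0.62), EGFR and MAPK genes (0.54 and 0.42) and p53 cell death genes (0.30 and 0.21) kept the sign of their medians. Mdm2 had a difference of 0.59 under CsA, where the lines overlapped. Of the p53 lists none had a gene called in the CsA libraries alone. Among 24 DNA replication genes 23 were positive under CsA, with a median of 0.37 beside 0.088 for all genes, of which 60.7% were positive.

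**Figure D5:**
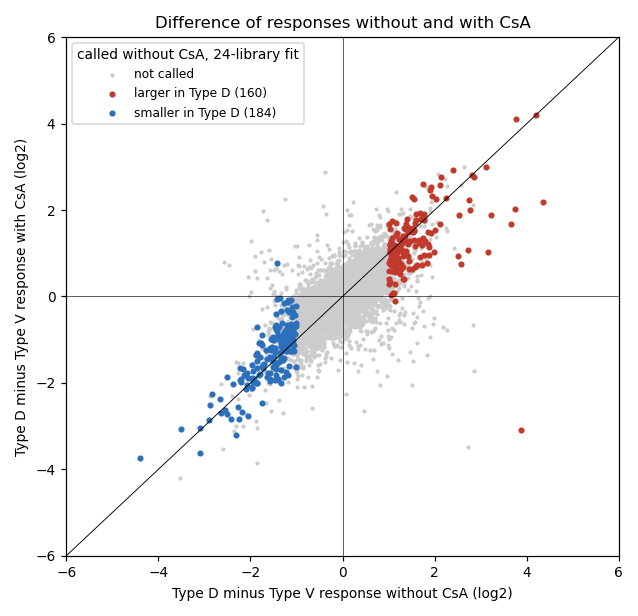
Difference of responses (Type D minus Type V, log2) without CsA on the x axis and with CsA on the y axis for all 14104 tested genes, with equality as a solid line. The 160 red and 184 blue genes were called without CsA in the 24-library fit, and 341 of these 344 lie in the same direction on both axes; the red point at lower right is Mir199a-1.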

How the data were processed

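The authors deposited 1 table of TPM (transcript abundance scaled to the same total in each library) for 25239 genes in 24 libraries (stranded mRNA, single-end reads). Their methods name kallisto and HISAT2, on a mouse assembly given both as mm10 and as GRCm39, and which of them made this table is not given in the sources used here. The deposited TPM columns each sum to 1000000, so depth is unknown, no counting interval is given and a listed 0 may be a failed estimate.

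Genes with at least 1 TPM in at least 3 of 24 libraries were kept (14104). log2(TPM + 1) was fitted with limma 3.58.1 in R 4.3.3 (trended empirical Bayes) on the 12 libraries without CsA, with 1 baseline per cell line as a block and 1 restoration response per type, and the contrast was Type D minus Type V. Adjusted p is Benjamini-Hochberg over all 14104 genes, two-sided, and ± is the standard error. A call needs an adjusted p below 0.05 and a difference of at least 1 log2. The labels name the line of each library, and same-line Control and Restored deviations correlated at 0.604 to 0.81 in 6 pairs. No 2 libraries held identical values. Tested on simulated data over 14104 genes, the 12-library fit recovered 71.3% of differences of 1.5 log2 and 94.3% of those of 3 log2, with 8 false calls on average. In that simulation all lines of a type shared 1 response, and noise was drawn separately for each library. Responses that differ from line to line were not simulated, so these shares need not hold for the real lines.

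The rule for named genes was the called genes with non-overlapping lines (up to 12 in each direction), called list members, all members of lists of 8 or fewer genes and Trp53. Because 5 genes were called, a second set (the 12 largest protein-coding differences in each direction in the 24-library fit), called list members of that fit, and others said to be so, were named after their values were seen. The lists and the comparison were chosen with earlier results of these data known. Older symbols were matched through RefSeq synonyms. Promoters are from RefSeq (GRCm38.p6), with 251 of 344 called genes matched. Alternatives were the fits without the block, with all 24 libraries and with the line prefix (4711 or 4716) as covariate, no trend, a pseudocount of 0.1, other filters and scalings, no minimum difference and leaving out each line.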

Additional observations from a re-analysis of the deposited data

Results flagged for a closer look

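Of the results, 5 were set apart because a test of the difference itself found that the restoration response differed between the types (limma, Type D minus Type V, log2 scale, 3 lines a type). These were Mgp with 4.21, Capn6 with 3.12, Csn3 with 2.25, Gm15987 with -4.41 and Cyp4b1 with -2.90. In each of them the 3 responses of 1 type lay wholly on 1 side of the 3 of the other. Mgp, Capn6 and Gm15987 were below 1 TPM in every Type D library without CsA, and Csn3 was at 0 TPM in every Type V library, so Cyp4b1 alone of the 5 was expressed in both types. For the others, lack of overlap and a small error follow in part from the type with almost no expression.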

How the results depend on the processing

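The 12-library fit called 3 genes larger and 2 smaller in Type D. Without the replicate block it called 1 and 1, with all 24 libraries and the replicate block 160 and 184, and with all 24 libraries and no replicate block 3 and 1. The line prefix as covariate gave 1 and 1, no trend 4 and 7, a pseudocount of 0.1 0 and 1, no filter 2 and 0, quantile normalization 3 and 6, and median-ratio scaling 3 and 1. Leaving out 1 line gave 0 to 6 larger and 0 to 8 smaller calls. Under CsA the 28 and 42 calls became 1 and 0 without the replicate block, 138 and 189 with 24 libraries and the replicate block, 1 and 1 with 24 libraries and no replicate block, 0 and 4 with the prefix, 0 and 5 with a pseudocount of 0.1, 0 and 0 without a filter, 47 larger with a minimum of 5 TPM, and 0 to 5 larger and 0 to 17 smaller without 1 line. The 160 and 184 calls became 466 and 319 with no minimum difference, and 60 to 192 and 71 to 268 without 1 line, an alternative chosen after seeing the data. The cause was not tested. None of the 5 called genes changed its sign in any setting. The medians of mitosis (-1.37 to -0.43), gut-like epithelium (-0.79 to -0.56), EGFR and MAPK genes (0.44 to 0.78), matrix genes (0.27 to 0.62) and ATF4 genes (0.47 to 1.21) kept their signs in 12 settings each. Those of DNA replication, cholesterol synthesis, interferon, p53 repair and metabolism, necrotic cell death, cyclophilins, the study's Module 2, myeloid and lymphocyte markers and all tested genes took both signs. Depth is unknown, and with 3 lines a type the 95% interval of a typical gene reached 0.53 log2 to either side.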
